A study of Drosophila melanogaster with 2 samples.

Results

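The 8 Wingless pathway genes wg, fz, fz2, arr, Axn, nkd, arm and pan were examined among 13945 protein-coding genes of the fly for sites bound by a GFP-tagged protein in whole prepupae. The genes were taken by name, with earlier results of these data known. A peak was assigned to a gene when its summit lay inside the gene or within 500 bp of one of its start sites. Chromatin immunoprecipitation with sequencing had been done with an anti-GFP antibody on a stable transgenic line of Drosophila melanogaster labelled as carrying a C-terminal GFP fusion of CG6854. The source label names CTPsyn, the gene of CTP synthase, as the target of the insertion. RefSeq gives CG6854 as an older name of both that gene and the overlapping gene CG45071, so which product carries GFP is not known here. The animals were prepupae of both sexes, pooled, of unknown age, and the 2 biological replicates, numbered 2 and 3, came from the same line and form 1 group, so there was no second group to compare them with. The promoter that drives the fusion is not given in the sources used here. Control libraries were not used here, and neither the scale of the signal values nor the depth of the libraries is known.

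Wingless is the best known Wnt ligand of the fly. It is secreted and binds Frizzled receptors together with the co-receptor Arrow. Without ligand, a cytoplasmic complex built on Axin marks the beta-catenin Armadillo for destruction. With ligand, Armadillo accumulates and enters the nucleus, where it acts with the TCF protein Pangolin on target genes, among them naked cuticle (nkd), which restrains the signal. In larvae and prepupae the pathway is known for patterning the imaginal discs that form the adult wing and leg. In whole animals, a strong signal in few cells and a weak signal in many cannot be told apart.

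Reproducible summits, meaning those the authors kept after an irreproducible discovery rate (IDR) cutoff on both replicates, lay at 5 of the 8 genes. The word refers to that list, and a summit in it can still rank low in 1 replicate. The receptor gene fz had 10, the receptor gene fz2 had 9, the antagonist gene nkd had 6, the co-receptor gene arr had 5 and the TCF gene pan had 1. The ligand gene wg, the scaffold gene Axn and the beta-catenin gene arm had 0. These 31 summits made up 0.544% of the 5703 in the list. The same rule found a reproducible summit at 22.9% of all protein-coding genes. Each of the 5 genes had 1 summit within 500 bp of a start site, a place bound at 2785 (20%) of all 13945 protein-coding genes.

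The windows of 101 bp around 7 summits are printed because they set the start-site summits of fz, fz2, nkd and pan beside the strongest ones. Those of arr are not printed here. For fz these are chr3L:14274197-14274297 and chr3L:14304023-14304123 on the + strand. For fz2 they are chr3L:19170611-19170711 and chr3L:19194205-19194305 on the - strand. For nkd they are chr3L:19045411-19045511 and chr3L:19042704-19042804 on the - strand. For pan the start-site summit was also its only one, at chr4:69427-69527 on the + strand. The strongest summits were set by rule, and the start-site windows were added after the values were seen. Each is read in the direction of its gene from the dm6 genome, with the summit at the centre. Capitals mark matches to any of the 12 motifs searched.
fz, start site: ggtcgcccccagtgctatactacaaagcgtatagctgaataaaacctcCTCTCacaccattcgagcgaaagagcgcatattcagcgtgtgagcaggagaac
fz, strongest: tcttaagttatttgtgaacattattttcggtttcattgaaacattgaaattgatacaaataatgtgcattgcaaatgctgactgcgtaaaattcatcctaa
fz2, start site: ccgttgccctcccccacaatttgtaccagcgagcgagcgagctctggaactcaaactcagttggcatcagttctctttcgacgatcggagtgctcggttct
fz2, strongest: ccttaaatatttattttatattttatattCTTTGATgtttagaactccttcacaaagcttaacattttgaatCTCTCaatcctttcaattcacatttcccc
nkd, start site: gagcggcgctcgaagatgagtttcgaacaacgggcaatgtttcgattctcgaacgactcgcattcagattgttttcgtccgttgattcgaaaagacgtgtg
nkd, strongest: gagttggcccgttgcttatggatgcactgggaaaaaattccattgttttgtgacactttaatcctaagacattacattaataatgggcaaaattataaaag
pan, start site and strongest: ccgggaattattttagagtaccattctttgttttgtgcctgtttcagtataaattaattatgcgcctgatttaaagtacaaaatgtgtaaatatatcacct

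Capitals appear in 2 of the 7 windows. CTCTC, the reverse complement of the GAGA factor element GAGAG, lies at the centre of the fz start-site window and in the strongest fz2 window. The strongest fz2 window also holds CTTTGAT, letters of the site that TCF proteins such as Pangolin are known to bind. The windows of nkd and pan hold none of the motifs. The start-site windows had a GC content of 55.4% in fz2, 50.5% in fz, 48.5% in nkd, 37.6% in arr and 30.7% in pan, so those of fz, fz2 and nkd were rich in G and C beside those of arr and pan. GC content had a median of 48.5% in the 5 start-site windows of the pathway genes and 35.6% in the other 26. Over the whole list the medians were 45.5% within 500 bp of a start site and 41.6% farther away.

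**Figure D1:**
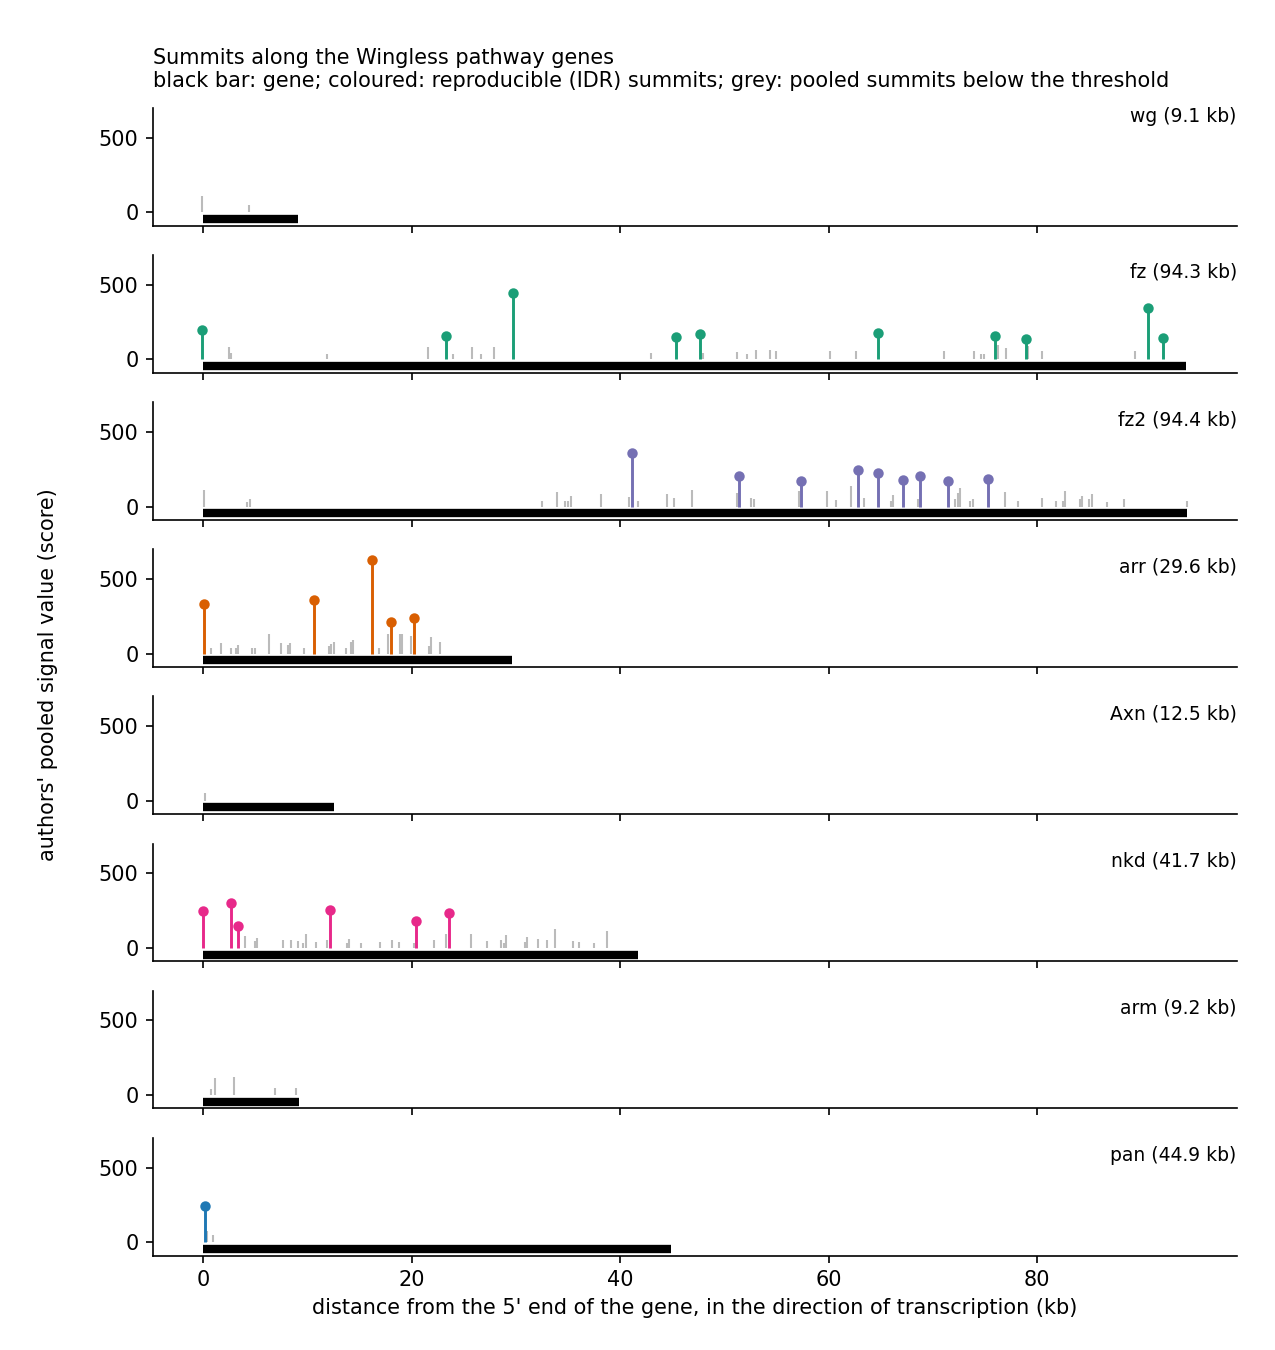
Summits along the 8 genes, drawn to scale. The x axis is the distance in kb from the 5′ end of the gene, the y axis is the authors' pooled signal value, a score. Coloured stems are reproducible summits and grey stems are summits of the pooled list below the threshold. Most reproducible summits of fz, fz2, arr and nkd lie in introns, over nearly all of fz but only a part of fz2, arr and nkd. The gene pan has 1 at its start, and wg, Axn and arm have grey stems only.

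The ligand gene wg (FBgn0284084) spans 9.1 kb at chr2L:7307159-7316265. Its strongest summit in the pooled list lay 78 bp from the start site, with a signal of 110.8. The weakest reproducible summit of the whole list had a signal of 136.3, so this one fell short. Its matched signals were 44.7 in replicate 2 and 56.8 in replicate 3, at ranks 10899 and 8797 of 30000. The closest reproducible summit lay 3905 bp downstream of the gene between annotated genes, with a signal of 203.4.

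The receptor gene fz (FBgn0001085), whose product also acts in planar cell polarity, spans 94.3 kb at chr3L:14274343-14368639. Its start-site summit lay 96 bp upstream and had a pooled signal of 198.7, with 112 in replicate 2 and 91.9 in replicate 3. The other 9 summits were intronic, 2 in intron 1 of 29.2 kb and 7 in intron 4 of 49.4 kb. The strongest, 29.7 kb into the gene, had a pooled signal of 447.1, with 181.2 in replicate 2 and 263.3 in replicate 3. It ranked 511 among the 5703 reproducible summits. The next, 90.6 kb into the gene, had 348.2, with 151.1 and 200.3 in replicates 2 and 3. These peaks stood clear of the other 8, whose pooled signals ran from 137.6 to 198.7. The 7 weaker intronic ones had 18.1 to 79.5 in replicate 2 and 68.6 to 113.8 in replicate 3. Summits were spread over 97.7% of the gene, with a median gap of 11.2 kb.

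The receptor gene fz2 (FBgn0016797), which encodes the other Frizzled that Wingless can signal through, spans 94.4 kb at chr3L:19140975-19235373 and has 3 annotated start sites. All 9 reproducible summits lay between 41.1 and 75.3 kb from its 5′ end, a stretch of 36.2% of the gene with a median gap of 3.24 kb. One of them lay 13 bp upstream of an internal start site, with a pooled signal of 226.2 and 104.1 and 129.2 in replicates 2 and 3. The strongest, 41.1 kb into the gene, had 357.2, with 152.9 in replicate 2 and 208.2 in replicate 3. The remaining 7 ran from 169.7 to 244.8 in pooled signal, from 66.2 to 105.3 in replicate 2 and from 66.8 to 160.2 in replicate 3. Their signals lay close together, and the first 41.1 kb of the gene held no reproducible summit. At the 5′-most start site only a summit below the threshold was listed, with a pooled signal of 108.4.

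The co-receptor gene arr (FBgn0000119), which encodes the fly LRP5/6 protein, spans 29.6 kb at chr2R:13453640-13483229. Its strongest summit, 16.1 kb into the gene at chr2R:13466806-13467240, had a pooled signal of 629.9, the highest at any of the 8 genes. The replicate signals there were 295.7 and 334.3, at ranks 204 and 265 of their lists, so replicates 2 and 3 placed it alike. A second intronic summit 10.6 kb into the gene had 358.0, with 174.6 and 192.1 in replicates 2 and 3. The start-site summit, 117 bp downstream in intron 1, had 336.0, with 153.9 and 180.2. A summit 20.2 kb into the gene had 236.0, with 120.6 and 130.8, and one 18 kb into it had 214.0, with 73.9 and 131.3. All 5 were above 200.1, the median of the whole list.

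The gene nkd (FBgn0002945) spans 41.7 kb at chr3L:19003741-19045449. Its start-site summit lay 12 bp upstream, with a pooled signal of 244.7 and 120.0 and 119.4 in replicates 2 and 3. The other 5 lay in intron 1 of 33.2 kb. The strongest, 2.69 kb into the gene, had 298.9, with 133.8 and 158.4 in the replicates. A summit 12.1 kb into the gene, inside the long noncoding RNA gene lncRNA:CR45940, had 253.3, with 118.5 and 148.3. The summit 23.5 kb into the gene had 232.6, with 168.0 in replicate 2 and no match within 100 bp in replicate 3. The closest one in replicate 3 lay 112 bp away with a signal of 73.7, so the replicates differed most here among the nkd summits. The weakest, 3.38 kb into the gene, had 144.1, with 113.9 and 79.0, and one 20.4 kb into it had 178.2, with 72.6 and 93.2.

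The TCF gene pan (FBgn0085432) spans 44.9 kb at chr4:69326-114270, on the small chromosome 4. Its only reproducible summit lay 151 bp downstream of the 5′-most start site, in the 5′ UTR of annotated transcripts. The pooled signal was 242.5, with 156.4 in replicate 2 and 80.2 in replicate 3. Ranks were 1042 and 5064, so the summit was far higher in the list of replicate 2. Chromosome 4 held 21 reproducible summits, and 17.5% of its 80 protein-coding genes had one by the same rule.

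The scaffold gene Axn (FBgn0026597) spans 12.5 kb at chr3R:30022842-30035311 and had 1 pooled summit, 122 bp from a start site, with a signal of 52.8. It matched a summit of 43.7 in replicate 2 and none in replicate 3. A reproducible summit with a signal of 472.1 lay 699 bp upstream, inside the neighbouring gene Mgat2, just outside the 500 bp allowed. The gene arm (FBgn0000117), whose product works in adherens junctions as well as in this pathway, spans 9.2 kb at chrX:1891401-1900646. Its strongest pooled summit had 117.6, with 72.0 in replicate 2 and no match in replicate 3. A second one, 1.1 kb into the gene, had a pooled signal of 111.9. Of the pooled summits at arm, 2 lay within 500 bp of a start site. The list of replicate 3 held 7 summits at the gene, the strongest with 52.2. The closest reproducible summit lay 7204 bp upstream in Edem1, with a signal of 164.2. In the relaxed pooled list, which keeps weaker peaks, wg had 2 summits, Axn 1 and arm 5. By the same count fz2 had 52, nkd 39, fz 36, arr 31 and pan 3. All 3 genes without a reproducible summit thus had one in the relaxed list, as had 51.3% of protein-coding genes.

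Gene length separated the genes with summits from those without. The 5 genes with summits spanned 29.6 to 94.4 kb, and the 3 without spanned 9.1 to 12.5 kb. Among protein-coding genes of 20 kb or more, 56.1% had a reproducible summit, against 20.3% of shorter genes. Start sites were bound in 42.7% of the long genes. At least 5 summits were found in 14.9% of the long genes and in 4 of the 5 long genes among the 8 examined, with arr exactly at this cutoff. The count in arr, 5 in the reproducible list, was 8 with replicate 2 alone. The number of summits per 10 kb was 1.69 in arr, 1.44 in nkd, 1.06 in fz, 0.953 in fz2 and 0.222 in pan. It was 0.405 over the summed span of all 1013 long genes and 0.761 over the 568 of them with a summit. A density as high as that of arr was found in 7.80% of long genes, as high as that of nkd in 10.1%, of fz in 16.6%, of fz2 in 19.8% and of pan in 50.7%. Dense summits were thus shared with many other long genes. The part of gene length in these counts was not tested.

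**Figure D2:**
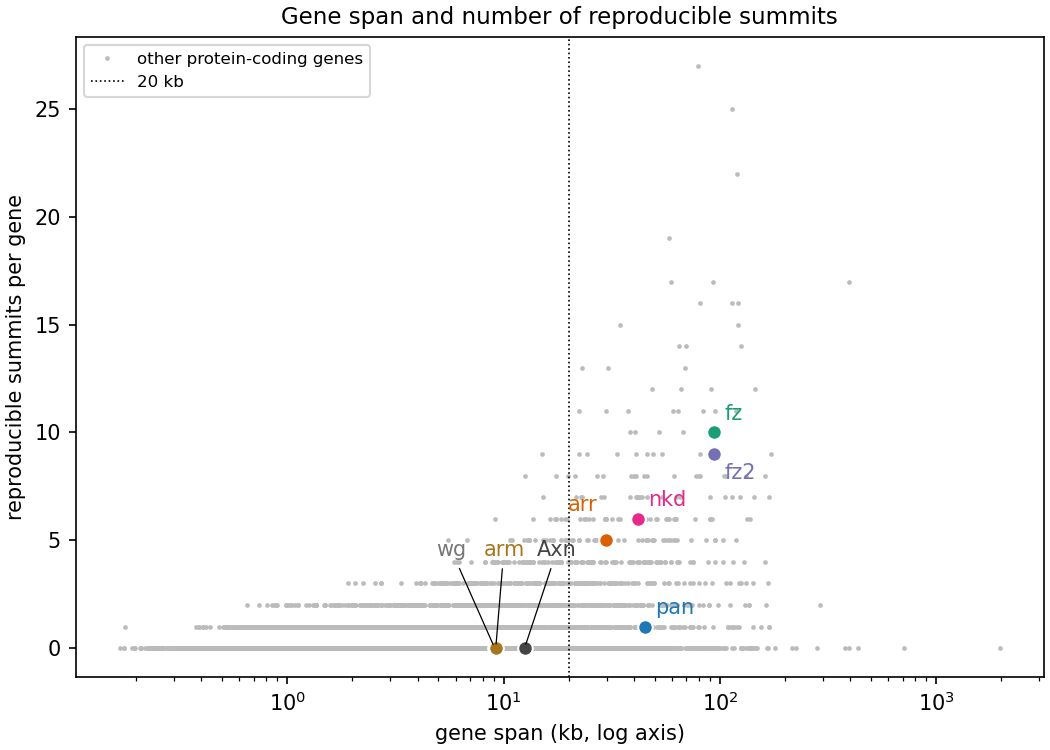
Number of reproducible summits per protein-coding gene (y axis) against the span of the gene in kb (x axis, log scale). Grey points are the other genes, coloured points the 8 pathway genes, and the dotted line marks 20 kb. Left of the line lie wg, arm and Axn at 0, and right of it the other 5 at 1 to 10 summits.

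Summits at these genes lay over 5 kb from start sites more often than the whole list did, which was not tested. Of the 31, 15 (48.4%) lay over 5 kb from any annotated start site, against 15.2% of all reproducible summits, and 5 (16.1%) lay within 500 bp, against 51.4%. All 31 lay at genes of 20 kb or more, whereas the whole list also holds summits at short genes and between genes. These shares were not matched for gene length, whose part was not tested. Introns held 28, upstream sequence 2 and a 5′ UTR 1, and coding sequence held 0. Signal was near that of the whole list, with a median of 207.3 at the 31 summits against 200.1 over all. Within the pathway genes it was 242.5 at the 5 start-site summits and 193.8 at the other 26. Over the whole list these medians were 204.9 and 194.6. The commonest peak width was 430 bp, held by 21 of the 31 peaks, and the 9 narrower peaks had a median signal of 336 against 179.9 in those 21. Over the whole list these medians were 286.4 and 171.1. Only 2 of the 31, the strongest of arr and of fz, exceeded 428, a signal that 10% of the list passed. The weakest was the fz summit at 137.6, and just below the threshold lay summits of 135.9 in fz2 and 134.7 in arr.

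The replicates were compared at matched summits, those of each replicate list within 100 bp of the reproducible summit. All 31 had a match in replicate 2 and 30 in replicate 3. Matched in both lists were 30 (96.8%, against 91.5% of all reproducible summits). That number was 24 with matching within 50 bp and 31 within 250 bp. As the reproducible list was derived from the replicate lists, such matches are partly built in. Signal was higher in replicate 3 at 23 of the 30, against 61.9% of all matched summits. The median log2 ratio of replicate 3 over replicate 2 was 0.24 at the pathway genes and 0.19 over the 5217 matched summits, and its SD was 0.63 in both. The median signal over all 30000 summits was 38.75 in the list of replicate 3 and 34.36 in that of replicate 2, so levels of the lists themselves differed. Replicate signals correlated with a Spearman's rho of 0.506 over the 30 summits, which share 5 genes and 2 libraries, and 0.551 over all matched summits. Among the 5703 strongest summits of each replicate, 24 of the 31 appeared in both, or 77.4%, against 62.8% of the whole list. The fz summit 92.1 kb into the gene differed most, with 18.1 in replicate 2 and 113.8 in replicate 3, at ranks 28164 and 2607.

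**Figure D3:**
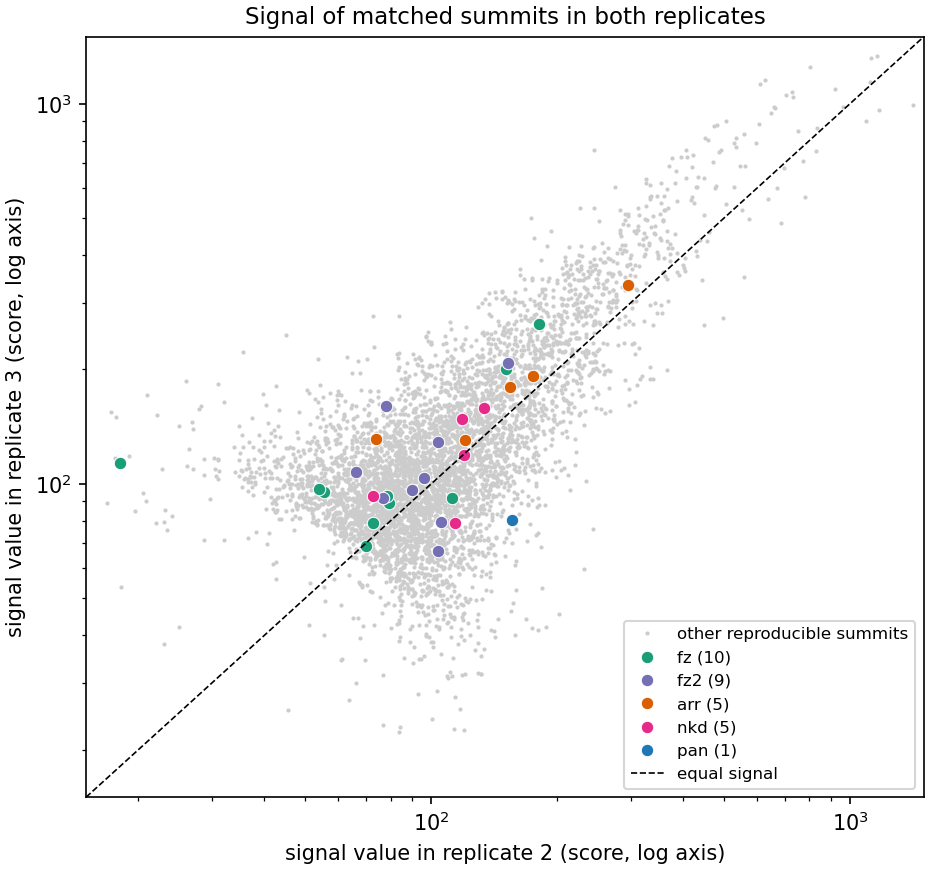
Signal value in replicate 2 (x axis) and in replicate 3 (y axis) of matched summits, a score on log axes. Coloured points are the 30 summits of fz, fz2, arr, nkd and pan, grey points the other reproducible summits, and the dashed line marks equal signal. The strongest summits of arr, fz and fz2 lie above the line, the fz summit with 18.1 in replicate 2 lies at the far left, and pan lies below the line.

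Motif matches near the 31 summits were few. The GAGA element GAGAG occurred, on either strand, in 4 of the 101 bp windows (12.9%), all in fz and fz2, against 21.7% of all reproducible windows. In windows of 201 bp, a width chosen after seeing the data, the shares were 38.7% and 37.5%. The longer repeat GAGAGAG, which contains GAGAG, was in 0 of 31, against 6.21% of all windows. The TCF letters CTTTGAT occurred once, in fz2 (1.35% of all windows), and CTTTGAA once, in arr (1.77% of all windows). The AP-1 element TGANTCA occurred once, in nkd (2.17% of all windows). The remaining motifs, namely the TCF helper letters GCCGCCG, the DRE TATCGATA, the nuclear receptor letters AAGGTCA, the E-box CACGTG, the Zelda letters CAGGTAG, the core promoter element GGTCACAC and the CA repeat CACACACA, had 0 matches in the 31 windows and were in 0.386% to 4.44% of all windows.

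Of 55 other genes of the pathway, 30 had a reproducible summit (54.5%, against 22.9% of all protein-coding genes). Gene length moved with this share too, since 13 of 16 genes of 20 kb or more had a summit (81.2%, against 56.1% of all long protein-coding genes), and 17 of 39 shorter ones did (43.6%, against 20.3% of all shorter genes). The following counts by role stand beside the 22.9% of all genes, and genes of both length classes are mixed in them. The 3 long genes without one were the ligand gene Wnt4, the receptor gene Drl-2 and the Hox gene Ubx, which were named after their values were seen. Of the 6 other Wnt ligand genes 2 had a summit. Wnt6, a neighbour of wg, had a summit inside the gene, away from its start sites, with a pooled signal of 225.7 and 110.7 and 116.6 in replicates 2 and 3, and Wnt5 had one of 145.7 with a match in replicate 2 only.

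Genes for ligand secretion and extracellular carriers had summits at 6 of 10, against 22.9% of all protein-coding genes. The strongest was at Notum, whose product inactivates Wnt ligands outside the cell and which is a known target of the pathway, with a pooled signal of 661.1 and 277.8 and 381.8 in replicates 2 and 3. Next was dlp, which encodes a glypican that carries Wingless, with 339.8 and 8 summits. Receptor genes had summits at 4 of 5, led by fz3, a further known target gene, at 222.2 and by drl, which encodes a receptor of Wnt5, at 218.8.

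Genes of cytoplasmic transduction had summits at 8 of 11 (72.7%). The share over all protein-coding genes, 22.9%, stands beside this count and the next ones, with long and short genes mixed. The casein kinase gene gish had a pooled signal of 835.4, with 311.2 and 532.9 in replicates 2 and 3. The gene sgg, which encodes the kinase that phosphorylates Armadillo, had 734.2, with 284.2 and 448.2. Genes of nuclear transcription complexes had summits at 6 of 12, with osa at 1170 and 13 summits and brm at 461, both encoding subunits of the Brahma chromatin remodelling complex. Genes listed as targets of the pathway had summits at 4 of 11, led by the homeobox genes Dll at 345.9 and hth at 236.7. Each gene was listed under a single role, so the known targets nkd, Notum and fz3 are not in this count.

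**Figure D4:**
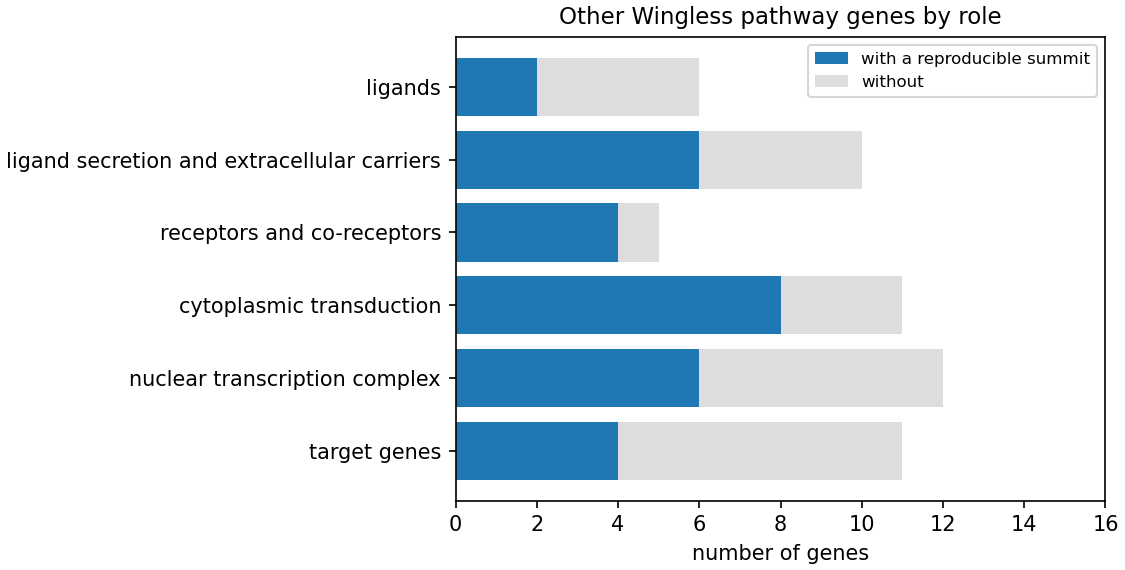
Number of other Wingless pathway genes in each role (x axis), with a reproducible summit in blue and without one in grey. Receptor genes have the highest share with a summit (4 of 5) and the 6 other ligand genes the lowest (2 of 6). Over all protein-coding genes the share is 22.9%, and the roles hold few genes, with long and short ones mixed.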

How the data were processed

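Sites of a GFP fusion had been mapped by ChIP-seq in 2 biological replicates of 1 group. Per the notes deposited with the files, relaxed peak lists were made for each replicate and for both alignments together as input to IDR analysis, and a further list holds the peaks past its threshold. All are narrowPeak lists on dm6. The sources used here name neither aligner nor peak caller. The deposited signal value is the authors' score per peak. Its scale is not stated, so it served to describe and rank peaks within a list. Ratios between the replicate lists are given only beside the same ratio over all matched peaks. Every reproducible peak had the same deposited −log10 q-value, 4.18. Each relaxed list holds 30000 peaks, and depth per library is unknown. Lists on dm3 were not used here.

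Summits were set against Ensembl release 115 on X, 2L, 2R, 3L, 3R and 4. Every peak lay within these arms of the NCBI Release 6 genome, and the 8 genes had the same coordinates in RefSeq. A gene counted as bound with a summit inside it or within 500 bp of a start site. No test was run: there is 1 group, and the genes, lists and motifs were chosen with earlier results of these data known. Named are the 8 genes and, of the other pathway genes, the 2 with the strongest signal in each role. The code of the assignment was checked on simulated summits placed by the same rule, and 200 of 200 planted genes were found among 13945. This does not show whether a summit belongs to the gene it was assigned to. Python 3.11.15, pandas 2.3.3, numpy 2.4.6 and matplotlib 3.10.9 were used. Alternatives were other windows around start sites, the stronger part of the list, each replicate alone, the pooled list, peak overlap in place of summits and other matching distances.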

Additional observations from a re-analysis of the deposited data

How the results depend on the processing

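The replicates are 1 group, so no test could be lost. No paired analysis was possible because there is only 1 group and the results come from no test. With the strongest 5703 peaks of 1 replicate alone, the number of the 8 genes with a summit ran from 5 to 6. The number of them with a start-site summit ran from 5 to 6 and their summits from 32 to 38. The other pathway genes with a summit ran from 28 to 31. By the same rule, 23.0% of all protein-coding genes had a summit with replicate 2 alone and 22.6% with replicate 3 alone. The gene gained in replicate 2 alone was arm, with 2 summits, and there arr had 8 and nkd 9. In replicate 3 alone arr had 7 and nkd 5. With 1000 bp around start sites Axn was added through the summit at Mgat2, and the share of all protein-coding genes rose to 25.3%. The strongest 5703 peaks of the pooled list gave the same number of summits at each of the 8 genes. Like the reproducible list, they lay at 3190 protein-coding genes, so this alternative gave no separate check of the counts. Among the stronger 2851 peaks, 17 summits lay at the 8 genes, against 31 in the whole list, with 2 in fz (10 in the whole list), 5 in fz2 (9), 5 in arr (5), 4 in nkd (6) and 1 in pan (1), so fz no longer had the most. Of the other pathway genes 19 had one, against 30 in the whole list, while the share of all protein-coding genes was 13.8%, against 22.9%. GAGAG was in 12 of 31 windows of 201 bp (38.7%, against 37.5% of all reproducible windows of that width). It was in 4 of 31 windows of 101 bp (12.9%, against 21.7% of all). Depth is unknown, so a summit below the threshold does not show that a gene was unbound.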

Other observations

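Stronger reproducible summits lay just outside some of the genes. A summit with a pooled signal of 514.2 lay 1725 bp upstream of fz, above the 447.1 of the strongest summit in the gene. A summit of 504.2 lay 2125 bp upstream of pan, within RpS3A, a gene for a small-subunit ribosomal protein, against 242.5 at pan itself. Next to nkd, a summit of 221.4 lay 1073 bp upstream, below its 298.9.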
